A study of Homo sapiens with 12 samples.

Results

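A set of 7 genes of receptor-driven and inflammatory cell death, the TRAIL ligand TNFSF10, its death receptors TNFRSF10A and TNFRSF10B, the death receptor FAS and the caspases CASP8, CASP4 and CASP1, was read by probe on bead arrays of the lung cancer line HCC827. All probes whose gene symbol in the platform annotation is one of these genes were taken, which gave 16 of the 48104 probes of the array that were used. The arrays form 4 groups of 3, placed by their titles: HCC827 in co-culture with MRC-5 and treated with gefitinib at 0.5 µM, HCC827 in co-culture with MRC-5, HCC827 alone treated with gefitinib at 0.5 µM, and HCC827 alone with DMSO. HCC827 is a non-small cell lung cancer line with an activating EGFR mutation, MRC-5 is a line of human lung fibroblasts, and gefitinib inhibits the EGFR kinase. Every group is thus 1 cell line, and the labels do not say whether its 3 arrays came from separate cultures, so p-values measure only the spread between these samples. The co-cultures used inserts with 1 µm pores, gefitinib was given after 24 h, and culture then went on for 48 h in EMEM with FCS after a PBS wash, per the labels. The labels do not state DMSO for the co-culture without gefitinib. The medium of the monoculture arms during the last step, and the presence of drug in it, are not given in the sources used here.

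TRAIL and FAS ligand bind trimeric death receptors on the cell surface, and the receptor tails gather the adaptor FADD and the initiator caspase CASP8, which then activates executioner caspases or cleaves BID to engage mitochondria. CASP1 and CASP4 are inflammatory caspases: CASP1 is activated in inflammasomes and matures interleukin precursors, CASP4 responds to bacterial lipopolysaccharide inside the cell, and both cleave the pore-forming protein GSDMD. TNFSF10, CASP1, CASP4 and CASP8 are known as genes that interferons can induce in many human cells.

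Each array detected 43.4% to 46.5% of its probes, and within a group r between arrays was 0.985 to 0.990 over the kept probes. Median scanner intensities were 105.5 to 110 on the co-culture arrays and 99.1 to 103 on the monoculture arrays, and the rows of the co-culture arrays had to be re-named through their values. The labels and headers name no slide or run and do not say whether the co-culture arrays were processed apart. Co-culture and its medium cannot be told apart in comparisons between culture arms, and neither can any such processing. The 8 epithelial markers were all kept, with summed linear intensities of 23430 to 24360 in co-culture with gefitinib, 26660 to 27910 in co-culture without it, 27840 to 28740 in gefitinib monoculture and 29090 to 29930 in DMSO monoculture. Of 15 fibroblast markers, 8 were kept, with sums of 2318 to 2832, 2556 to 2869, 4699 to 5251 and 2183 to 2227 in the same order of groups. FAP, PDGFRA, PDGFRB, POSTN and THY1 were not detected on any array, and the sum was highest in gefitinib monoculture, which held no fibroblasts. There 4 of the 8 rose against DMSO monoculture, where 16.4% of all genes rose. Between co-culture and monoculture without gefitinib 0 of the 8 differed, where 3.22% of all genes did. The part of fibroblast RNA in the values below was not tested.

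Levels below are log2 intensities after normalization, and no probe is set against another. A probe counted as detected on an array when its detection p was under 0.05, and it was kept when this held on at least 3 of 12 arrays. Of the 16 probes, 11 were kept, from 6 genes, while the 3 CASP1 probes and 2 of the 4 CASP8 probes were not. Changes were tested with limma over all 18238 kept probes with 1 gene symbol, and a probe was called at an adjusted p (Benjamini-Hochberg) under 0.05. Errors of levels are SD with n = 3 and errors of log2 changes are standard errors of the fit. The 3 arrays per group limit the precision. The 5 comparisons share groups, so a high or low gefitinib monoculture enters 3 of them, and values set side by side are not independent.

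TNFSF10 and 1 of the 3 kept CASP4 probes (ILMN_1678454) were both highest in gefitinib monoculture, and the 250 bases before their RefSeq start sites are shown because both are known interferon-inducible genes. The TNFSF10 stretch lies at chr3:172523431-172523680 on the minus strand and the CASP4 stretch at chr11:104968575-104968824 on the minus strand (GRCh38.p14), both printed 5′ to 3′ with the one match to an interferon-stimulated response element core in capitals.
TNFSF10: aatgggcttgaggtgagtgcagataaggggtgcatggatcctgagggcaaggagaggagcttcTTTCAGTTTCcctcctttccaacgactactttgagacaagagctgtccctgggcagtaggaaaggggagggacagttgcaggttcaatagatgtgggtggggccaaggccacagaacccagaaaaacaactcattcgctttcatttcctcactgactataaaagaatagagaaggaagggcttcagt
CASP4: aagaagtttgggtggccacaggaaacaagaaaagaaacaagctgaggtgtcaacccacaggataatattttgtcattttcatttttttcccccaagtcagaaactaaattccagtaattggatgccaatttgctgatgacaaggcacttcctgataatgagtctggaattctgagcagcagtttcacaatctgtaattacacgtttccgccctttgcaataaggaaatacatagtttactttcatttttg
The core searched was TTTC, any 2 bases and TTTC again, and the gamma-interferon activation site searched was TTCNNNGAA, each on both strands in windows of 300 bases around the start. The TNFSF10 window held 1 core match, which begins at position -187 from the start site, and no activation site. The CASP4 window held neither. Over all 35116 windows of the RefSeq table, 3.57% held the core and 7.66% the activation site. CASP8 has 3 windows in that table, of which 1 held both motifs, and FAS has 3 windows with neither. The same table has no window for CASP1, TNFRSF10A or TNFRSF10B, so these genes were not searched. A match of letters is a description and says nothing of binding.

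TNFSF10, the gene of the TRAIL ligand, was detected on the arrays of gefitinib monoculture alone. Its probe (ILMN_1801307) read 4.22, 4.23 and 4.49 in co-culture with gefitinib, 4.21, 4.18 and 4.22 in co-culture without it, 5.64, 5.70 and 5.64 in gefitinib monoculture and 4.33, 4.33 and 4.25 in DMSO monoculture. The 3 arrays of gefitinib monoculture stood above the other 9, none of which detected the probe. The mean of 5.66 ± 0.036 in gefitinib monoculture against 4.31 ± 0.046 in DMSO monoculture gave a log2 change of 1.35 ± 0.095 (adjusted p = 1.227e-06), or at least 2.33-fold higher. Such a bound sets the bright group's mean against, on each array of the dim group, the higher of the lowest signal among detected probes and the probe's own. The probe passed the filter through gefitinib monoculture alone, and with no filter on dim probes the adjusted p was 1.226e-06. In the authors' normalized values, which keep the background signal, the log2 change was 0.48. In such bulk RNA, fewer expressing cells and less RNA per cell cannot be told apart.

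In co-culture TNFSF10 was below detection with and without gefitinib, so no fold is given there. Its fitted difference was 0.11 ± 0.095 (adjusted p = 0.75). Among gefitinib-treated cells it was at least 2.30-fold lower in co-culture than in monoculture, with a log2 change of -1.35 ± 0.095 (adjusted p = 1.304e-06), and -0.49 in the authors' values. Without gefitinib neither culture detected it. The gefitinib effect in co-culture minus that in monoculture was -1.24 ± 0.13 (adjusted p = 0.0001178), and -0.38 in the authors' values. Every group in it except gefitinib monoculture was below detection, so this difference restates the high level of that group. All these TNFSF10 calls held when any 1 of the 12 arrays was left out, with the probe kept in every fit. Without an array of gefitinib monoculture it would not pass the filter of detection on at least 3 arrays.

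TNFRSF10A, a death receptor for TRAIL, went the other way in gefitinib monoculture. Its probe (ILMN_1721316), detected on all 12 arrays, read 6.23, 6.47 and 6.52 in co-culture with gefitinib, 6.26, 6.67 and 6.83 in co-culture without it, 5.86, 6.02 and 5.79 in gefitinib monoculture and 6.34, 6.77 and 6.63 in DMSO monoculture. Gefitinib monoculture lay below all other arrays, and the other 3 groups overlapped. In monoculture the gene fell to 5.89 ± 0.12 with gefitinib, against 6.58 ± 0.22 with DMSO, a log2 change of -0.69 ± 0.16 (adjusted p = 0.007757), or 1.61-fold lower, with -0.33 in the authors' values. In co-culture the difference between gefitinib and no gefitinib was not called, at -0.18 ± 0.16, with a 95% interval of -0.54 to 0.18 (adjusted p = 0.7649).

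Among gefitinib-treated cells TNFRSF10A was 1.43-fold higher in co-culture than in monoculture, at 0.52 ± 0.16 (adjusted p = 0.0294). That call was lost without gefitinib monoculture replicate 1 or 3 or gefitinib co-culture replicate 2 or 3, with adjusted p up to 0.09122, and in the authors' values, where the change was 0.22 (adjusted p = 0.05031). The test of the difference between the gefitinib effects gave 0.51 ± 0.23 (adjusted p = 0.1726), so the effect was not shown to differ between co-culture and monoculture.

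TNFRSF10B, the other TRAIL death receptor, was called in no comparison by any of its 3 kept probes. Its probe with the highest mean (ILMN_1699265) read 9.76, 9.95 and 9.77 in co-culture with gefitinib, 10.14, 9.75 and 9.69 in co-culture without it, 10.19, 10.07 and 10.00 in gefitinib monoculture and 10.06, 9.94 and 10.06 in DMSO monoculture. Neighbouring groups in the order of means overlapped. The gefitinib effect on this probe was 0.07 in monoculture (95% interval -0.21 to 0.35) and -0.04 in co-culture (-0.31 to 0.24). Among gefitinib-treated cells its arrays lay lower in co-culture than in monoculture without overlap, by -0.26 ± 0.13 (adjusted p = 0.1399), and this difference was called in the authors' values, at -0.25 (adjusted p = 0.03664), and without background correction, at -0.24 (adjusted p = 0.03542).

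The other probes of TNFRSF10B stood at lower signal. ILMN_2331010, annotated to another transcript of the gene and detected on all 12 arrays, averaged 6.65 ± 0.22 in co-culture with gefitinib, 6.68 ± 0.20 in co-culture without it, 6.42 ± 0.063 in gefitinib monoculture and 6.46 ± 0.20 in DMSO monoculture. ILMN_1812915 was detected on 7 arrays and on none of co-culture without gefitinib, where it read 4.34, 4.87 and 4.63, against 5.02, 5.23 and 5.37 in DMSO monoculture. Those groups did not overlap, and the log2 change of -0.59 ± 0.23 was not called (adjusted p = 0.2111).

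FAS, the receptor for FAS ligand, was near the detection limit by the 1 probe it has, which is annotated to 1 transcript of the gene. Whether other transcripts of FAS were present was not tested. Its 1 probe (ILMN_1808132) read 5.22, 4.35 and 5.09 in co-culture with gefitinib, 4.29, 4.83 and 4.60 in co-culture without it, 4.31, 4.59 and 4.39 in gefitinib monoculture and 4.60, 4.78 and 4.83 in DMSO monoculture. It was detected on 2 arrays of each group except gefitinib monoculture, where it was detected on none. In monoculture the arrays with gefitinib lay below those with DMSO without overlap, by -0.31 ± 0.21, which was not called (adjusted p = 0.3286). The spread within co-culture with gefitinib was wide, since replicate 2 lay at 4.35. Without that array FAS among gefitinib-treated cells was higher in co-culture than in monoculture by 0.72 (adjusted p = 0.006868), and the difference between the gefitinib effects was 0.89 (adjusted p = 0.02178), where the values with all arrays were 0.45 (adjusted p = 0.1265) and 0.62 (adjusted p = 0.201).

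**Figure D1:**
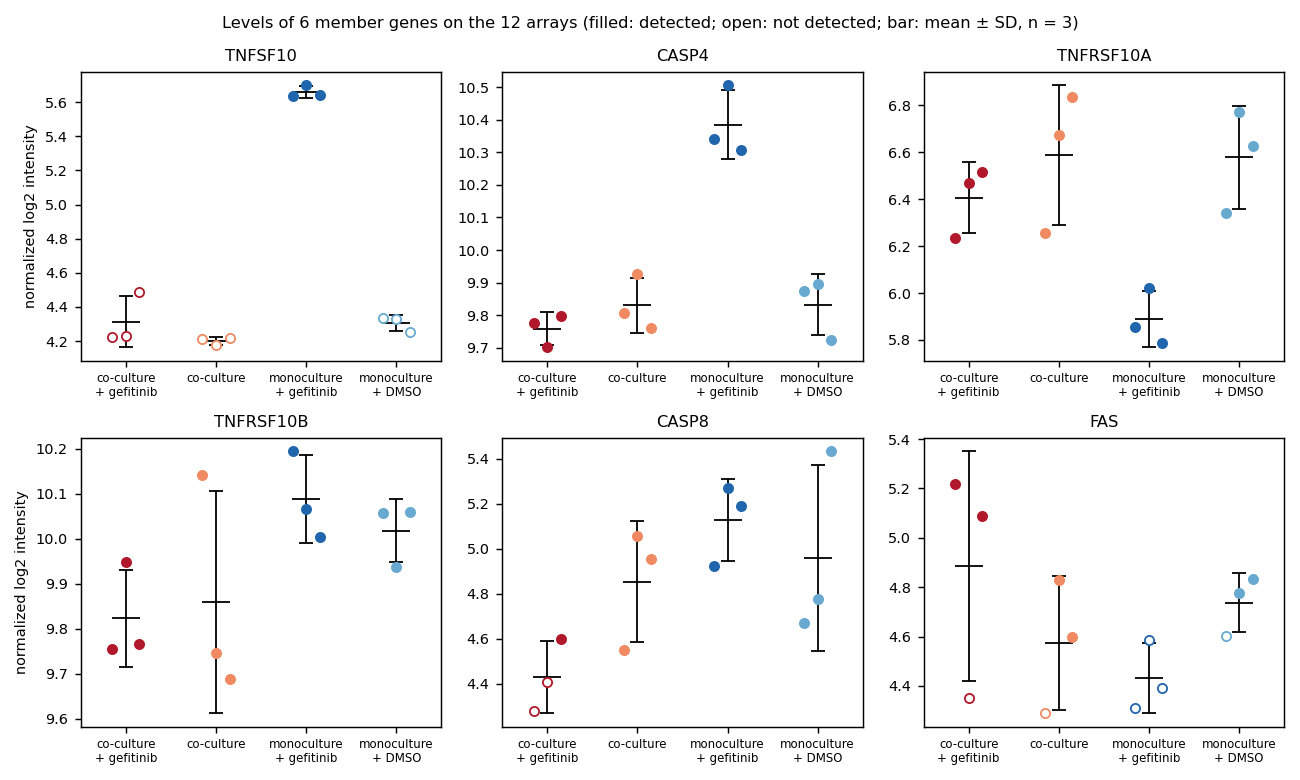
Normalized log2 intensity of the highest-mean probe of 6 genes on each array, with filled points for arrays that detected the probe, open points for those that did not, and bars for the mean ± SD of 3 arrays; each panel has its own range. TNFSF10 and CASP4 stand high in gefitinib monoculture (5.64 to 5.70 and 10.31 to 10.51), and TNFRSF10A stands low there (5.79 to 6.02).

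CASP8, the initiator caspase of both receptor systems, was lower in co-culture than in monoculture among gefitinib-treated cells by 1 of its kept probes. That probe (ILMN_1673757) read 4.28, 4.41 and 4.60 in co-culture with gefitinib, 4.55, 5.06 and 4.95 in co-culture without it, 4.92, 5.27 and 5.19 in gefitinib monoculture and 4.67, 4.78 and 5.43 in DMSO monoculture. It was detected on all arrays except 2 of co-culture with gefitinib. Among gefitinib-treated cells the 2 cultures did not overlap, and the log2 change was -0.70 ± 0.20 (adjusted p = 0.02095), with -0.23 in the authors' values.

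That CASP8 call was lost without gefitinib monoculture replicate 2 or 3 or gefitinib co-culture replicate 1 or 2, with adjusted p up to 0.07287. The gefitinib effect on CASP8 was not called in monoculture, at 0.17 ± 0.20 (adjusted p = 0.6058), or in co-culture, at -0.42 ± 0.20 (adjusted p = 0.4882). The difference of those effects was -0.59 ± 0.29 (adjusted p = 0.2065), and it was called without DMSO monoculture replicate 3, at -0.83 (adjusted p = 0.0424). The second kept probe (ILMN_2377733), annotated to another transcript and detected on 5 arrays, gave -0.06 ± 0.18 (adjusted p = 0.8275) between the gefitinib-treated cultures. With the mean of both probes the change was -0.38 (adjusted p = 0.06878). The other 2 CASP8 probes were detected on 0 of 12 arrays.

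CASP4, an inflammatory caspase, rose with gefitinib in monoculture by its probe with the highest mean. This probe (ILMN_1678454) read 9.78, 9.70 and 9.80 in co-culture with gefitinib, 9.81, 9.93 and 9.76 in co-culture without it, 10.34, 10.51 and 10.31 in gefitinib monoculture and 9.88, 9.90 and 9.72 in DMSO monoculture. Gefitinib monoculture lay above all other arrays, and the other 3 groups overlapped. The mean was 10.38 ± 0.11 with gefitinib and 9.83 ± 0.094 with DMSO, a log2 change of 0.55 ± 0.097 (adjusted p = 0.00126), or 1.47-fold higher, with 0.52 in the authors' values. With median scaling instead of quantile normalization the change was smaller, at 0.38 (adjusted p = 0.03581). In co-culture the difference with gefitinib was -0.07 ± 0.097, with a 95% interval of -0.29 to 0.14 (adjusted p = 0.8598).

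Among gefitinib-treated cells CASP4 was 1.54-fold lower in co-culture than in monoculture by this probe, at -0.63 ± 0.097 (adjusted p = 0.0004535). Without gefitinib the cultures differed by 0.00 ± 0.097 (95% interval -0.21 to 0.21). The difference between the gefitinib effects was -0.63 ± 0.14 (adjusted p = 0.01018), and with median scaling it was -0.51 and lost its call (adjusted p = 0.07975).

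A second CASP4 probe followed culture instead of the drug. ILMN_1778059, annotated to another transcript of the gene, read 6.02, 6.41 and 6.22 in co-culture with gefitinib, 6.03, 6.69 and 6.34 in co-culture without it, 5.71, 5.68 and 5.70 in gefitinib monoculture and 5.78, 5.70 and 5.40 in DMSO monoculture. All 6 co-culture arrays lay above all 6 monoculture arrays. The change with co-culture was 0.73 ± 0.17 without gefitinib (adjusted p = 0.04039) and 0.52 ± 0.17 with it (adjusted p = 0.03368), or 1.66-fold and 1.43-fold higher, with 0.32 and 0.21 in the authors' values. The difference with gefitinib was 0.07 ± 0.17 in monoculture (adjusted p = 0.795) and -0.14 ± 0.17 in co-culture (adjusted p = 0.8386).

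Neither call of this probe was firm. Without gefitinib the adjusted p reached 0.1428 when DMSO monoculture replicate 3 was left out, and the call was lost in 9 of the 12 fits without 1 array (any array of both monocultures, replicates 2 and 3 of co-culture without gefitinib and replicate 3 of co-culture with gefitinib), with no filter on dim probes (adjusted p = 0.05437) and with the arrays of these groups alone (adjusted p = 0.1307). With gefitinib the call was lost in 5 of the 12 such fits (any array of gefitinib monoculture, replicates 2 and 3 of co-culture with gefitinib), up to an adjusted p of 0.1144 without gefitinib co-culture replicate 2, and in the authors' values (adjusted p = 0.05684). The third probe (ILMN_1774585), annotated to the same transcript as ILMN_1678454 and detected on 5 arrays, was called in no comparison. Its change with gefitinib in monoculture was 0.07 ± 0.20 (adjusted p = 0.8317), so these 2 probes of 1 transcript did not give the same result. With the mean of the 3 CASP4 probes the gefitinib effect in monoculture was 0.23 (adjusted p = 0.05427). The change with co-culture among gefitinib-treated cells was then -0.07 (adjusted p = 0.5521), so the mean kept no call in these comparisons. Without gefitinib, the mean was called higher in co-culture than in monoculture.

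**Figure D2:**
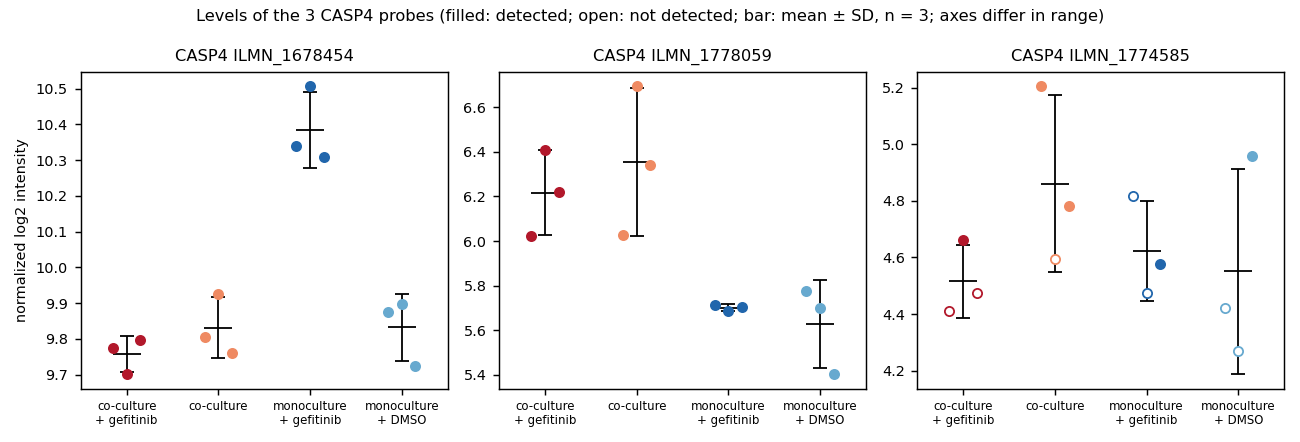
Normalized log2 intensity of the 3 CASP4 probes on each array, with filled points for detected, open points for not detected and bars for the mean ± SD of 3 arrays; each panel has its own range. ILMN_1678454 is high in gefitinib monoculture (10.31 to 10.51), ILMN_1778059 is high in both co-culture groups (6.02 to 6.69 against 5.40 to 5.78 in monoculture), and ILMN_1774585 shows overlap of all groups.

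CASP1, the inflammasome caspase, was not measurable in these cells. Of its 3 probes, 2 were detected on 0 of 12 arrays, and the third (ILMN_2326512) on 1 array, of gefitinib monoculture. The third probe read 4.14, 4.16 and 4.41 in co-culture with gefitinib, 4.38, 4.19 and 4.63 in co-culture without it, 4.45, 4.57 and 4.38 in gefitinib monoculture and 4.23, 4.32 and 4.51 in DMSO monoculture. All groups overlapped, and no fold is given.

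In monoculture gefitinib changed 3 of the 11 kept probes, with TNFSF10 and the first CASP4 probe up and TNFRSF10A down, where 28.4% of all kept probes were called, 15.1% up and 13.3% down. The median log2 change of the 11 was 0.07, against 0.01 over all kept probes. Gefitinib and DMSO arrays did not overlap for 4 of the 11 probes, where 44% of all kept probes did not overlap. With median scaling the same number of the 11 were called, where 4916 of all kept probes were called. The calls over all probes that were up then made 41.4%, against 53.1% with quantile normalization.

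In co-culture gefitinib changed 0 of the 11 probes, where 1.16% of all kept probes were called. Their log2 changes lay between -0.42 for CASP8 and 0.31 for FAS, and groups did not overlap for 1 probe, that of TNFSF10, which neither group detected (14.7% of all kept probes). The same count of 0 was found in each alternative that was run.

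Without gefitinib co-culture changed 1 of the 11 probes, the second CASP4 probe, where 3.37% of all kept probes were called. The groups did not overlap for 3 of the 11 (24.2% of all kept probes), which were that probe, TNFRSF10B ILMN_1812915 and TNFSF10. Calls over all probes that were up made 53.4%, against 67.5% with median scaling, 47.5% on the authors' values and 47.8% without background correction. With gefitinib co-culture changed 5 of the 11 probes, where 33% of all kept probes were called: TNFSF10, CASP8 and the first CASP4 probe were lower, and TNFRSF10A and the second CASP4 probe were higher. The groups did not overlap for 6 of the 11 (44.5% of all kept probes), these 5 and TNFRSF10B ILMN_1699265. The median over the 11 was -0.11, against -0.03 over all kept probes. The gefitinib effect differed between the cultures for 2 of the 11 probes, TNFSF10 and the first CASP4 probe, where 15.4% of all kept probes were called.

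**Figure D3:**
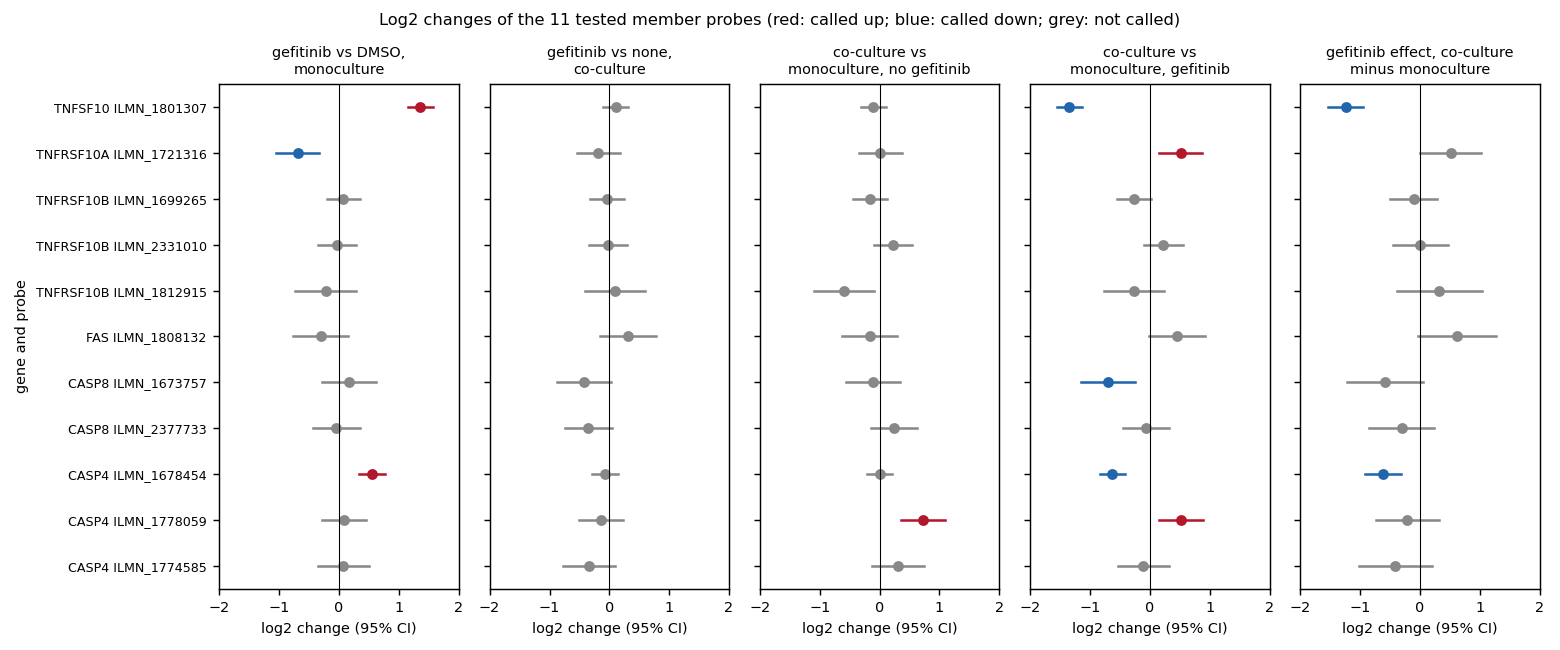
Log2 change with its 95% confidence interval for the 11 kept probes in the 5 comparisons, red where called up, blue where called down and grey where not called. TNFSF10 is at 1.35 and CASP4 ILMN_1678454 at 0.55 for gefitinib in monoculture, while all 11 probes are grey for gefitinib in co-culture, between -0.42 and 0.31.

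Other genes of the pathways were counted over lists, each gene standing with its brightest kept probe on average. In gefitinib monoculture against DMSO, 30.2% of all 13577 genes were called, and the median log2 change of all genes was 0.01. None of the 4 other caspases measured (CASP2, CASP6, CASP9 and CASP10) was called in any comparison, and their changes with gefitinib in monoculture lay between -0.02 for CASP9 and 0.32 for CASP6.

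Of 11 other death ligands, receptors and decoys, 1 rose and 2 fell with gefitinib in monoculture. TNF, another death ligand of the family, rose by 1.81 ± 0.084 (at least 3.15-fold), with means of 6.09 with gefitinib and 4.28 with DMSO, where it was not detected. TNF was detected on the 3 arrays of gefitinib monoculture and would not have passed the filter without them, so it passed through the group where it was high. TNFRSF6B, a soluble decoy for FAS ligand, fell by 2.04 ± 0.23, and the TNF receptor TNFRSF1A fell by 0.46 ± 0.11. In co-culture the same 3 genes were called with the same signs, with TNF at least 1.20-fold higher, TNFRSF6B at -1.36 and TNFRSF1A at -0.58, where 1.33% of all genes were called. Each of these 3 co-culture calls was lost in some of the 12 fits without 1 array, in 5 for TNF, 4 for TNFRSF6B and 7 for TNFRSF1A, with adjusted p up to 0.07092, 0.06105 and 0.112. TNF was detected on 2 arrays of co-culture with gefitinib and 0 of co-culture without it, and its call was also lost in the authors' values and without background correction. The difference between the gefitinib effects was called for TNF, at -1.33 ± 0.12, where 16.7% of all genes were called. Among gefitinib-treated cells TNFRSF10D, a decoy receptor for TRAIL, was higher in co-culture than in monoculture by 0.78 ± 0.16, while TNF was lower by -1.37 ± 0.084 and the death receptor TNFRSF21 by -0.60 ± 0.11.

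The adaptors and kinases next to the receptors moved in both directions. Of 14 measured, 5 rose and 2 fell with gefitinib in monoculture and 0 were called in co-culture. CFLAR, the CASP8-like inhibitor within the receptor complex, rose by 0.88 ± 0.096, RIPK2 by 0.72 ± 0.13 and the adaptor CRADD by 0.59 ± 0.16, while the necroptosis effector MLKL fell by 0.95 ± 0.096. Among gefitinib-treated cells CFLAR was lower in co-culture than in monoculture by -1.18 ± 0.096, the CASP8 substrate BID by -1.09 ± 0.12 and the TNF receptor adaptor TRADD by -0.61 ± 0.099, while MLKL was higher by 0.87 ± 0.096. The BID call was lost with the mean of its probes, 1 of which had the opposite sign.

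Of 10 inhibitors of caspases and their partners, 4 rose and 2 fell with gefitinib in monoculture. BIRC5, which is also a protein of dividing cells, fell by 2.25 ± 0.12, and CARD16, a CASP1-like protein that holds back CASP1, rose by 0.81 ± 0.21 (at least 1.65-fold). CARD16 was detected on 3 arrays of gefitinib monoculture, 1 of each co-culture group and 0 of DMSO monoculture, so it passed the filter through the group where it was high. BIRC7 rose by 0.63 ± 0.16 (at least 1.33-fold) and BIRC2 by 0.47 ± 0.14. BIRC7 was detected on the 3 arrays of gefitinib monoculture alone and passed the filter through them. Leaving out 1 array ended the call of CARD16 (gefitinib monoculture replicate 3, adjusted p = 0.05616) and, in 5 of 12 such fits, that of BIRC2 (adjusted p up to 0.08363). In co-culture XIAP, a direct inhibitor of executioner caspases, fell by 0.74 ± 0.13, a call lost in the authors' values (-0.27) and in 4 of 12 fits without 1 array (adjusted p up to 0.06812). Among gefitinib-treated cells BIRC5 was higher in co-culture than in monoculture by 2.19 ± 0.12.

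Of 12 inflammasome and pyroptosis genes, 3 rose and 3 fell with gefitinib in monoculture and 0 were called in co-culture. The gasdermins GSDMB and GSDME rose by 1.35 ± 0.11 and 1.16 ± 0.12, and the inflammasome sensor NLRP3 fell by 1.10 ± 0.17. IL1RN, the interleukin-1 receptor antagonist, fell by 0.79 ± 0.25 (at least 1.73-fold lower), with the call lost in 5 of 12 fits without 1 array (adjusted p up to 0.1236). Its call was also lost with no filter on dim probes, with the replicate block and with the mean of its probes, 1 of which had the opposite sign. In the authors' values the NLRP3 change was -0.41. Among gefitinib-treated cells GSDMB and GSDME were lower in co-culture than in monoculture by -1.38 ± 0.11 and -1.31 ± 0.12, and NLRP3 and the DNA sensor AIM2 were higher by 1.23 ± 0.17 and 0.64 ± 0.14. Of 10 apoptosome genes and executioner substrates, 3 rose and 3 fell: the lamins LMNB1 and LMNA fell by 1.53 ± 0.14 and 1.09 ± 0.12, the nuclease DFFB by 0.56 ± 0.10, and gelsolin (GSN) rose by 0.97 ± 0.15. None of those 10 was called in co-culture, and in the authors' values the LMNB1 change in monoculture was -0.75.

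Interferon receptors, kinases and factors that act upstream of several of the members rose more often. Of 13 measured, 9 rose and 0 fell with gefitinib in monoculture, where 16.4% of all genes rose, with a median log2 change of 0.56 against 0.01 over all genes. IRF7 rose by 1.02 ± 0.18, IRF9 by 0.98 ± 0.10, IFNGR2 by 0.86 ± 0.096 and JAK1 by 0.85 ± 0.17. In co-culture 0 of the 13 were called with gefitinib. Among gefitinib-treated cells 9 of the 13 were lower in co-culture than in monoculture, where 34.4% of all genes were called and 20.3% were lower, with IRF9 at -1.11 ± 0.10, IRF7 at -1.05 ± 0.18, JAK1 at -0.88 ± 0.17 and IFNGR1 at -0.86 ± 0.13. These values stand beside TNFSF10 and CASP4 ILMN_1678454, which had the same signs in both comparisons, while CASP4 ILMN_1778059 was higher in co-culture. Whether they are linked was not tested.

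Of 12 genes of p53 and stress signalling, 4 rose and 1 fell with gefitinib in monoculture. TP53INP1 rose by 2.25 ± 0.14, GADD45A by 0.80 ± 0.099 and CDKN1A by 0.67 ± 0.098, while TRIB3 fell by 0.73 ± 0.11. In co-culture TRIB3 fell by 1.05 ± 0.11 and TP53INP1 rose by 0.79 ± 0.14, the last with its call lost in 4 of 12 fits without 1 array (adjusted p up to 0.1007). Without gefitinib, DDIT3 and TRIB3, both of the stress response, were higher in co-culture than in monoculture, by 0.82 ± 0.13 and 0.74 ± 0.11, where 3.22% of all genes were called. The DDIT3 call was lost with the arrays of these groups alone. The other listed genes called without gefitinib were TNFRSF1A at 0.51, SERPINB1 at 0.49, IFI16 at 0.59, BID at -0.64 and CDKN1A at -0.44, and each of these calls was lost in 4 to 7 of 12 fits without 1 array (adjusted p up to 0.1131). Among gefitinib-treated cells TP53INP1 and CDKN1A were lower in co-culture than in monoculture, by -1.71 ± 0.14 and -1.15 ± 0.098.

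**Figure D4:**
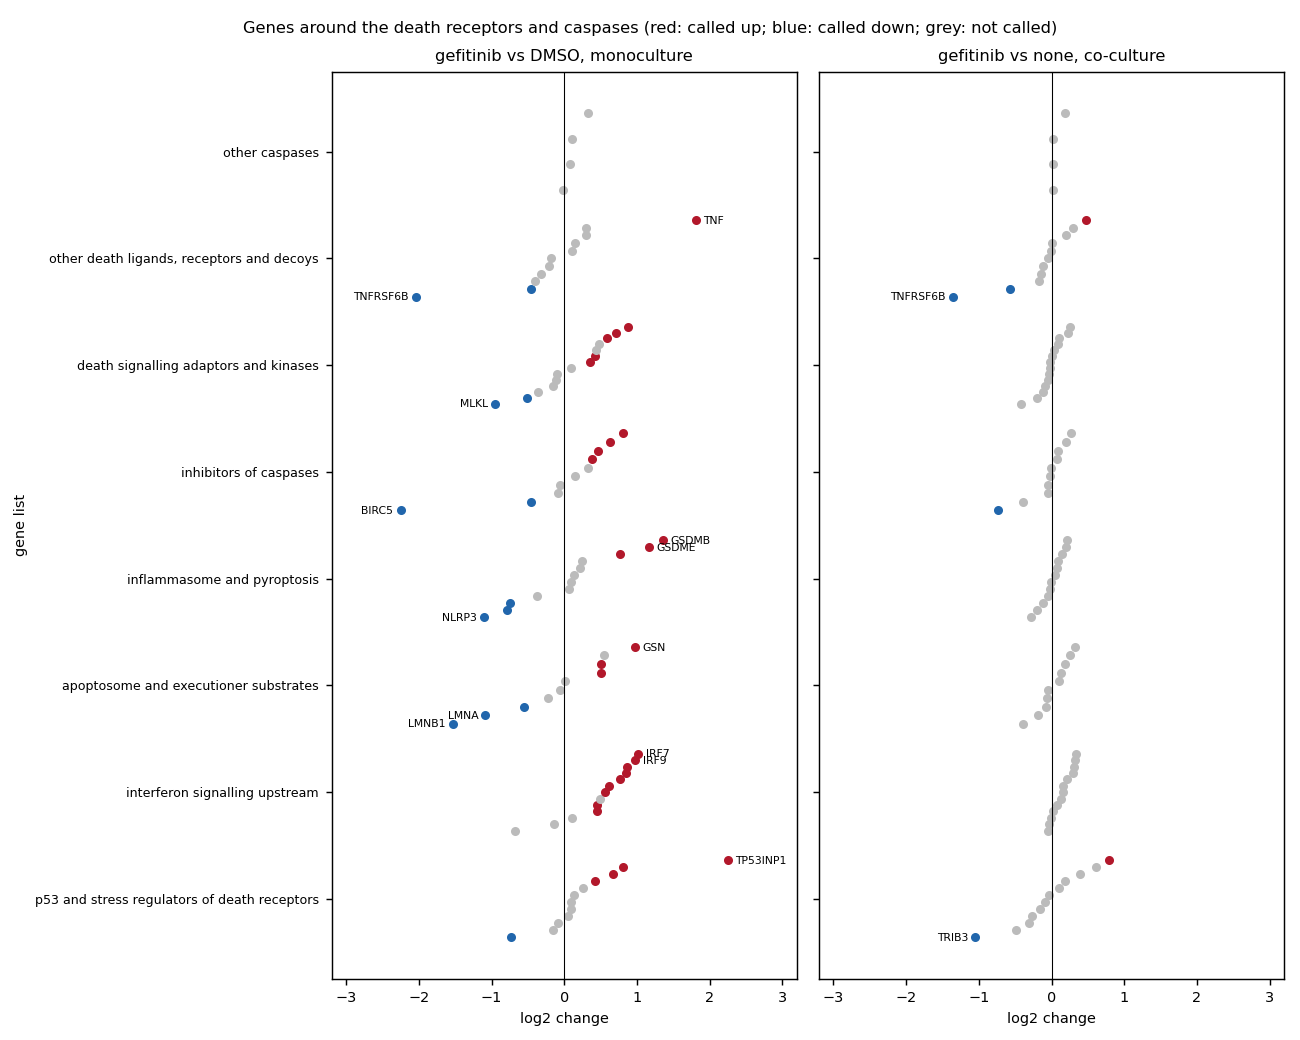
Log2 change with gefitinib in monoculture (left) and in co-culture (right) for the measured genes of 8 lists, 1 point per gene, red where called up, blue where called down and grey where not called; names mark called genes with changes of at least 0.9 in size. In monoculture 9 of the 13 interferon signalling genes are red, and in co-culture none of them is.

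For each gene the other genes most alike in pattern were taken by Pearson's r over the 12 arrays, which share the 4 groups, among 13576 others. TNFSF10 was most like CBLB (0.99), BAZ2B (0.99) and SMIM14 (0.99), with its probe detected on 3 of the 12 arrays, all of gefitinib monoculture. CASP4, by its first probe, was most like CNN2 (0.98), WIPI2 (0.97) and TSPAN31 (0.97). TNFRSF10A was most like ANP32AP1 (0.94), WNT3 (0.94) and STEAP1 (0.93), and TNFRSF10B like TMED1 (0.93), TFAP2A (0.91) and PI4K2A (0.91). CASP8 and FAS gave lower values, with CASP8 most like UNC93B1 (0.88), FBXL14 (0.87) and CCDC22 (0.86) and FAS most like TAP2 (0.89), CRISP2 (0.84) and OR4L1 (0.84). Between the genes themselves, with CASP4 by its first probe, r was 0.96 for CASP4 and TNFSF10, -0.82 for TNFSF10 and TNFRSF10A and -0.75 for CASP4 and TNFRSF10A. These values describe 4 groups more than 12 independent points.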

How the data were processed

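RNA of 12 HCC827 samples was made into biotin-labelled cRNA (Ambion MessageAmp) per the labels' protocols and read on Illumina bead arrays. A first deposited table holds linear scanner intensity values per probe, not normalized, with a detection p-value beside each, per the file headers. The other deposited table has normalized intensity values of the authors, made by steps not given in the sources used here. They are linear, not log2, with column medians from 103.6 to 104.7.

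In the scanner table the monoculture arrays correlated with the other table at r of at least 0.99988. For the 6 co-culture arrays the row order differed (r at most 0.00105), so each row took the name of the probe that its 6 values matched best in the other table. All 48106 rows were mutual best matches, and 100% of 48104 shuffled monoculture rows returned to their own probe in a check. For the 16 probes described, the match lay within 0.00326 log2 units, against at least 0.04297 for the next row.

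Background was corrected with limma 3.58.1 (R 4.3.3; neqc, detection p, offset 16), then quantile normalization and log2. Of 48104 probes, 30113 had 1 gene symbol, 8 several and 17983 none in the table used. Of those with 1 symbol, 18238 were kept (detection p under 0.05 on at least 3 arrays). A limma model with a mean per group was fitted over all 12 arrays, with two-sided tests, and was tested on simulated data. Motifs were searched in RefSeq promoters (GRCh38.p14).

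The genes described and the other lists were chosen with earlier results of these data known. From each other list and comparison, up to 4 called genes with the largest changes were named, and for each described gene the 3 most alike. Fibroblast, epithelial and blood cell markers were counted too: of the blood cell list 3 genes were kept, and 0 of them were called for gefitinib in monoculture. Same-numbered samples shared little deviation (correlation of same-numbered deviations -0.043 to 0.097), which cannot exclude pairing. Alternatives were the authors' values, no background correction, median scaling, no filter or a stricter one (detection p under 0.01 on at least 6 arrays), 1 probe or the mean of probes per gene, the arrays of each comparison alone, a replicate block, and leaving out each array.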

Additional observations from a re-analysis of the deposited data

Results flagged for a closer look

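The effect of gefitinib in co-culture minus its effect in monoculture passed limma's test of that difference for the genes below, given as log2 differences. No group is large enough for a test of single outlying arrays.

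Among the death receptor and caspase genes these were TNFSF10, at -1.24, and the first CASP4 probe, at -0.625. In both, gefitinib monoculture stood above the other 3 groups, and it alone detected TNFSF10. Among other death ligands TNF had -1.33. CFLAR had -0.78, TRADD -0.53 and MLKL 0.74 among the adaptors and kinases. Of the caspase inhibitors, BIRC5 had 2.44 and XIAP -0.66. GSDMB had -1.22, GSDME -1.07, NLRP3 1.32 and AIM2 0.74 among inflammasome and pyroptosis genes. Of the executioner substrates, LMNB1 had 1.35, LMNA 0.69, GSN -0.84 and DFFB 0.51. In interferon signalling IRF9 had -1.03, IRF7 -0.86, JAK1 -0.86 and IFNGR2 -0.56. TP53INP1 had -1.46, DDIT3 -0.91 and CDKN1A -0.71 among p53 and stress regulators.

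These differences set co-culture arrays against monoculture arrays, so medium, and any separate processing of those arrays, cannot be told apart from co-culture. The calls of DFFB, IRF7, JAK1, XIAP, TRADD, AIM2, GSN and IFNGR2 were lost in 13, 12, 9, 9, 7, 5, 3 and 1 of the alternatives, and that of CASP4 with median scaling.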

How the results depend on the processing

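Of the called changes of the death receptor and caspase genes, 194 recomputed values kept their direction and call and 30 lost the call, with the values given beside each gene above. For the named genes of the other lists these numbers were 1683 and 177. The slide as a block was not run, because the headers give no slide. On the authors' normalized values and without background correction, changes of dim probes were smaller, such as 0.69 for TNF and -0.81 for TNFRSF6B with gefitinib in monoculture in the authors' values. With the stricter filter TNFSF10 was not tested. Precision is limited by 3 arrays per group and, for TNFSF10, FAS, CASP8 and CASP1, by signal near the background.

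Over all kept probes, the count called for gefitinib in co-culture, 212, was 385 on the authors' values, 433 without background correction, 49 with the arrays of the compared groups alone and 114 to 183 when 1 array was left out. The count for co-culture without gefitinib, 614, was 1158, 1267, 240 and 220 to 601 under the same settings, and 366 with median scaling. Of the 11 probes, co-culture without gefitinib changed 0 with no filter, 0 with the arrays of the compared groups alone and 0 to 1 when 1 array was left out (1 as reported). With no filter, 479 of all probes tested were called there. Co-culture with gefitinib changed 2 to 5 of the 11 when 1 array was left out, where 5062 to 6027 of all kept probes were called. The gefitinib effects differed for 1 of the 11 with median scaling and for 1 with the stricter filter. Over all probes tested, 2326 and 3154 were called in these settings. By the mean of each gene's probes, co-culture changed 1 gene described without gefitinib (0 by the highest-mean probe) and 2 with it (4). Over all genes, 453 and 4685 were called by that mean, against 437 and 4669 by the highest-mean probe.

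Pairing by replicate number was not seen, since no correlation of same-numbered deviations passed 0.1 and not every array correlated best with its own number. Such a check on 3 arrays per group cannot exclude pairing. With the replicate block, 3, 0, 1, 5 and 2 of the 11 probes were called in the 5 comparisons, as without it, and 5083, 154, 421, 5922 and 2607 of all kept probes.

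The values that changed sign were not called as reported, and 1 of them was called after the change, CASP4 by the mean of its probes in co-culture without gefitinib (adjusted p = 0.04762). On the authors' values TNFRSF10A without gefitinib was -0.004 and the difference of gefitinib effects for TNFRSF10B ILMN_2331010 was -0.0088 (-0.019 with median scaling). Median scaling also gave -0.095 and 0.0092 for TNFRSF10B ILMN_1699265 (gefitinib in monoculture and difference of effects) and 0.023 for CASP4 ILMN_1678454 (co-culture without gefitinib). The mean of probes gave -0.063, 0.011 and 0.073 for TNFRSF10B (gefitinib in monoculture, in co-culture and their difference), and 0.35 for CASP4 and 0.068 for CASP8 (co-culture without gefitinib). Leaving out 1 array gave, for gefitinib in monoculture, ranges of -0.18 to 0.12 for CASP8 ILMN_2377733, -0.11 to 0.082 for TNFRSF10B ILMN_2331010, -0.069 to 0.28 for CASP4 ILMN_1774585 and -0.037 to 0.15 for CASP4 ILMN_1778059. For gefitinib in co-culture the ranges were -0.15 to 0.063, -0.042 to 0.22 and -0.12 to 0.11 for TNFRSF10B ILMN_2331010, ILMN_1812915 and ILMN_1699265, and -0.30 to 0.033 for CASP4 ILMN_1778059. For co-culture without gefitinib they were -0.11 to 0.18 for TNFRSF10A, -0.055 to 0.034 for CASP4 ILMN_1678454 and -0.25 to 0.13 for CASP8 ILMN_1673757. For co-culture with gefitinib they were -0.15 to 0.042 for CASP8 ILMN_2377733 and -0.48 to 0.016 for TNFRSF10B ILMN_1812915, and for the difference of effects -0.11 to 0.096 and -0.19 to 0.035 for TNFRSF10B ILMN_2331010 and ILMN_1699265. The cause of these changes was not tested.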
